A study of Mus musculus with 24 samples.

Results

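Levels of 9 liver-enriched transcription factors were compared in mouse livers from models of liver cancer with and without chronic injury. The genes were taken by symbol from the table: Hnf4a, Foxa1, Foxa2, Foxa3, Cebpa, Cebpb, Onecut1, Prox1 and Nr5a2, which are 9 of its 53467 genes. All 9 passed the filter on low counts, which kept 19381 genes.

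Bulk RNA was sequenced from 24 snap-frozen livers of male C57BL/6JAusb mice, 1 liver per mouse, aged 14 to 15 weeks at hydrodynamic tail vein injection (HTVI), in which a large volume of plasmid solution is pushed into the tail vein so that hepatocytes take it up. Every mouse received 0.8 µg of the SB plasmid, which encodes the Sleeping Beauty transposase, so that the controls carried it too. In the tumour models 10 µg each of a transposon plasmid for AKT (myristoylated, constitutively active) and of one for either human c-Met (SB/AKT/c-Met) or human NRasV12 (SB/AKT/NRas) were added. From 8 to 10 days later, 10 to 11 intraperitoneal injections, 2 per week over 5 to 6 weeks, gave either saline or thioacetamide (TAA), a hepatotoxin that causes chronic injury and fibrosis, at 100 and then 200 mg/kg. There were 4 livers labelled SB + saline and 4 labelled SB + TAA. The AKT/c-Met model gave 3 livers (SB/AKT/c-Met + saline) without injury and 4 livers (SB/AKT/c-Met + TAA) with it. The AKT/NRas model gave 4 (SB/AKT/NRas + saline) and 5 livers (SB/AKT/NRas + TAA). HTVI reaches only some hepatocytes, and the livers were not dissected into tumour and non-tumour tissue. In such bulk tissue, fewer hepatocytes and less RNA per hepatocyte cannot be told apart.

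These factors form a network that keeps hepatocytes differentiated, in which HNF4A, the FOXA proteins, C/EBPα, HNF6 (the product of Onecut1), PROX1 and NR5A2 (LRH-1) bind near one another at genes for plasma proteins, bile acid synthesis and intermediary metabolism. The FOXA proteins open chromatin in the embryonic foregut before liver genes are switched on, while HNF4A and C/EBPα maintain the adult programme. Loss of HNF4A and of C/EBPα is a known feature of injured and malignant liver, and C/EBPβ is the member of the C/EBP pair that takes part in the acute phase response and in regeneration.

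Each liver had 2152510 to 3399247 counts assigned to genes (median 2832909). Human NRAS had 28 to 768 counts in the 9 SB/AKT/NRas livers and 0 to 2 in the other 15, and human MET had 2 to 31 counts in the 7 SB/AKT/c-Met livers and 0 in the other 17. The hepatocyte markers were abundant in every group, with a summed level of 12 genes between 87202 and 178138 CPM, that is, counts scaled to a common library total. The SB + saline libraries stood apart as a group. Their scaling factors by the trimmed mean of M values (TMM) were 0.772 to 0.817 against 0.846 to 1.19 elsewhere, and they held 15478 to 16478 genes with a count against 16279 to 19026 elsewhere. Scaling by library size alone therefore moved the median of all genes up by 0.26 to 0.43 on the log2 scale in the comparisons with SB + saline. In SB + TAA replicate 4, 10 skeletal muscle markers summed to 8159 CPM, against 4.28 to 34.2 CPM in the other 23 livers. SB/AKT/NRas + saline replicate 1 stood apart from its group, with 28 counts of human NRAS against 159 to 768 and 16403 genes with a count against 17800 to 18411 in the other 3 livers, so results were computed with and without both of these livers. CPM below are scaled by TMM, and a change is a difference of log2 CPM from edgeR's quasi-likelihood model with its standard error and a p-value adjusted by Benjamini-Hochberg over 19381 genes. All changes from SB + saline share the same 4 control livers.

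In outline, Prox1 was lower in 3 of the 5 treated groups than in SB + saline, Cebpa in 2, and Hnf4a and Foxa3 in 1 group each, and no member was called higher. In the F test over the 6 groups, Prox1 (adjusted p = 0.00593) and Cebpa (adjusted p = 0.0353) passed, 2 of the 9 members, where 9.01% of all genes tested passed. The other 7 did not pass: Nr5a2 (0.188), Hnf4a (0.235), Foxa3 (0.264), Onecut1 (0.372), Foxa1 (0.409), Foxa2 (0.687) and Cebpb (0.949). Nr5a2 was the only one of those 7 with an unadjusted p under 0.05 (0.0382), a threshold that 22.9% of all genes met.

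**Figure D1:**
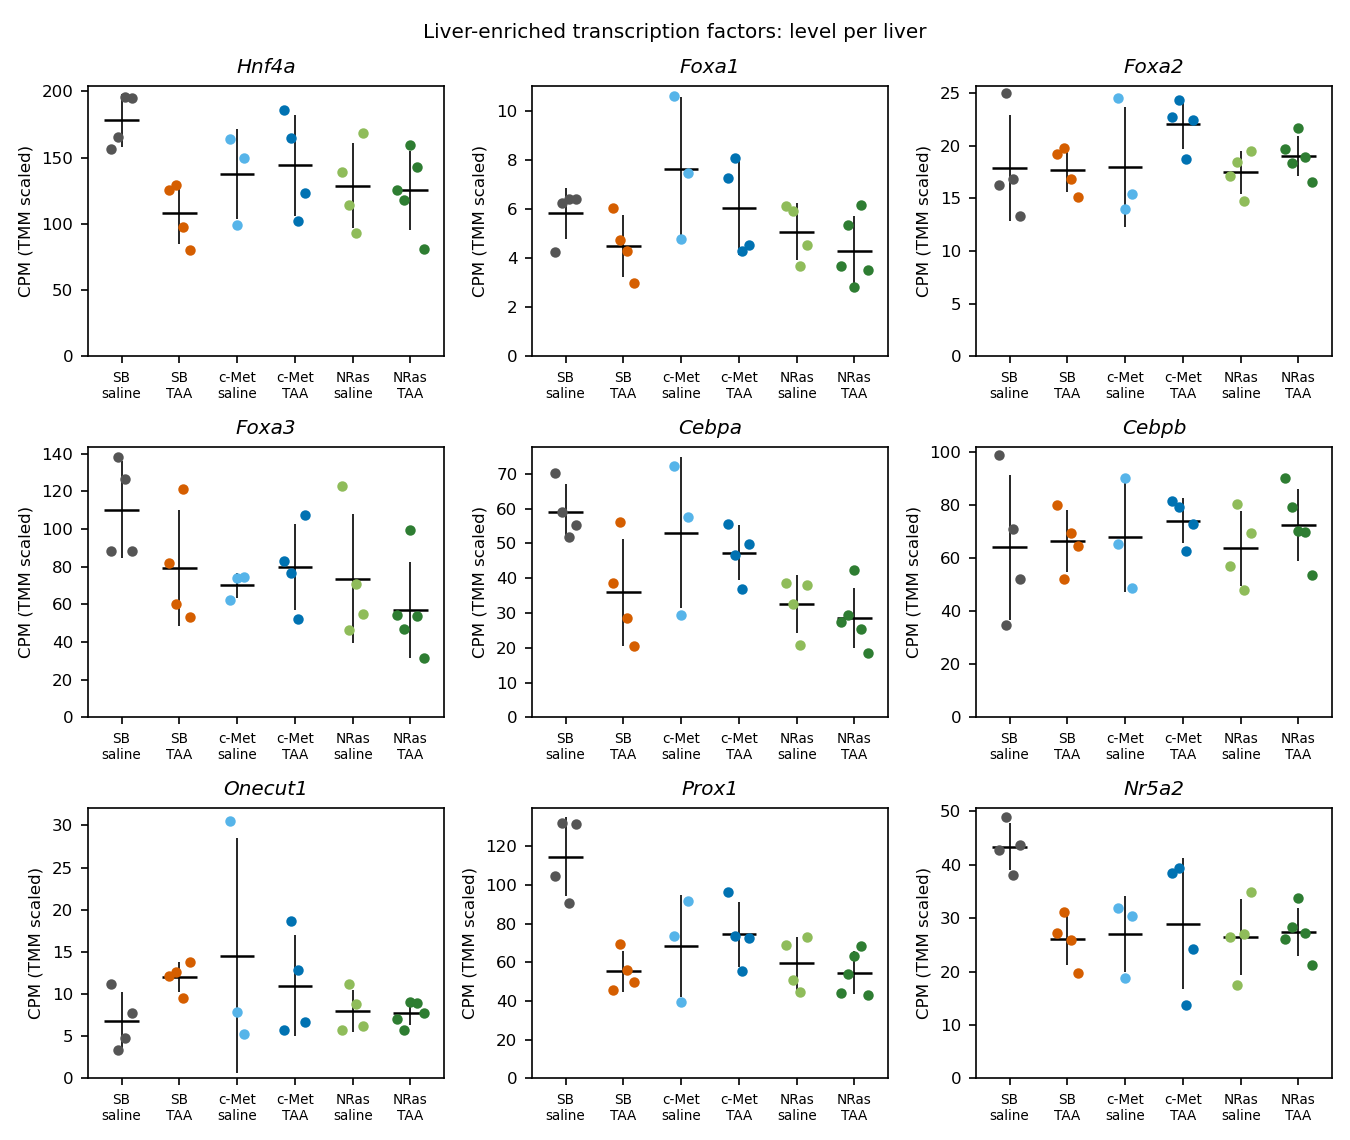
Each panel shows 1 of the 9 genes, with CPM on a linear axis from 0, a point for each liver, a bar for the group mean and a line for ± 1 SD (n = 3 to 5). For Prox1 the SB + saline livers lie at 90.6 to 132 CPM, with 2 of the 20 treated livers above the lowest of them, and they are spread among the other groups for Foxa2 and Cebpb.

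Prox1 encodes a homeodomain protein that is needed for hepatocytes to leave the embryonic liver bud and that acts in the adult liver as a co-repressor of HNF4A and NR5A2 targets. The gene (ENSMUSG00000010175) lies on the reverse strand of GRCm38 at chr1:190118035-190170714, with 6 exon blocks of 8390 counted bases in all. In the SB + saline livers Prox1 was at 104, 132, 90.6 and 131 CPM. The SB + TAA livers were at 45.7, 69.5, 56.3 and 49.8 CPM, and those of SB/AKT/NRas + saline had 69.0, 50.8, 44.9 and 73.2 CPM. In SB/AKT/NRas + TAA the 5 livers had 44.4, 54.0, 63.3, 68.4 and 43.4 CPM. Every liver of these 3 groups was below the lowest control liver. In the order given, 5.2%, 4.27% and 6.12% of all genes showed this in the single groups, and the joint share was not counted. SB/AKT/c-Met + saline, at 73.6, 39.6 and 91.5 CPM, and SB/AKT/c-Met + TAA, at 96.4, 73.5, 55.5 and 72.7 CPM, each had 1 liver inside the range of the controls.

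From a control mean of 115 ± 20.5 CPM (SD, n = 4), Prox1 fell to 55.3 ± 10.4 (n = 4) with TAA alone, a log2 change of −1.05 ± 0.23 (SE, edgeR adjusted p = 0.00576). The SB/AKT/NRas + saline mean was 59.5 ± 13.8 CPM (n = 4), a change of −0.95 ± 0.23 (edgeR adjusted p = 0.00904). With AKT/NRas and TAA it was 54.7 ± 11.2 CPM (n = 5), a change of −1.07 ± 0.21 (edgeR adjusted p = 0.00174). From the highest mean down, the controls were followed by SB/AKT/c-Met + TAA, whose mean was 74.5 ± 16.8 CPM (n = 4), then by SB/AKT/c-Met + saline, with 68.3 ± 26.3 CPM (n = 3), and then by the other 3 groups in the order AKT/NRas without TAA, TAA alone, and AKT/NRas with TAA. Every neighbouring pair in this order overlapped in range. Against SB + saline the SB/AKT/c-Met + TAA livers differed by −0.62 ± 0.22 (edgeR adjusted p = 0.124) and the SB/AKT/c-Met + saline livers by −0.75 ± 0.25 (edgeR adjusted p = 0.223), neither of which passed. The falls with TAA alone and in SB/AKT/NRas + TAA passed with any single liver left out, with adjusted p-values of 0.00255 to 0.0256 and of 0.00127 to 0.00903 over the omissions. The fall in SB/AKT/NRas + saline did not pass with library size alone (adjusted p = 0.0711) or without SB/AKT/NRas + saline replicate 3 (adjusted p = 0.0531).

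Prox1 also marks lymphatic endothelium, so 6 genes used as markers of that cell type are given beside it. Ccl21a was at 0 in every liver, and the summed level of the 6 lymphatic markers was 29.1 to 46.1 CPM in SB + saline and 35.6 to 80.7 CPM in the other groups. Of the 5 markers tested none was lower in any treated group, while Lyve1 or Flt4 rose in 4 of the 5 groups and the other 3 were not called against SB + saline in any. Bulk RNA does not show which cells these transcripts came from, so their level is not a measure of lymphatic cells alone. The part of lymphatic cells in the Prox1 values was not tested.

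Cebpa encodes C/EBPα, which restrains hepatocyte division and drives genes of gluconeogenesis, the urea cycle and albumin. The gene (ENSMUSG00000034957) has 1 exon on the forward strand at chr7:35119293-35121928. The SB + saline livers were at 70.2, 59.1, 51.7 and 55.2 CPM. SB/AKT/NRas + saline had 38.7, 32.7, 20.7 and 38.1 CPM, and SB/AKT/NRas + TAA had 27.4, 29.3, 42.3, 25.4 and 18.5 CPM. All 9 SB/AKT/NRas livers were below the lowest control. Of all genes 4.27% showed this without TAA and 6.12% with it, and the joint share was not counted. In SB + TAA the 4 livers were at 38.7, 56.05, 28.4 and 20.6 CPM, so that 1 of them lay among the controls. In SB/AKT/c-Met + saline the livers ranged widely, at 72.2, 29.4 and 57.7 CPM, and those of SB/AKT/c-Met + TAA, at 55.7, 46.8, 36.8 and 49.8 CPM, overlapped the controls.

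Mean Cebpa fell from 59.1 ± 8.01 CPM (n = 4) to 32.6 ± 8.32 (n = 4) in SB/AKT/NRas + saline, a log2 change of −0.87 ± 0.28 (edgeR adjusted p = 0.0488). With TAA added it was at 28.6 ± 8.68 (n = 5), a change of −1.05 ± 0.26 (edgeR adjusted p = 0.00976). In SB + TAA, at a mean of 35.9 ± 15.3 CPM (n = 4), the change was −0.73 ± 0.27 and did not pass (edgeR adjusted p = 0.118). The lower level in SB/AKT/NRas + saline was at the edge of the threshold. It did not pass in 7 of the 8 single omissions, in which the adjusted p ran from 0.0276 to 0.202, and passed only without SB/AKT/NRas + saline replicate 1. The fall in SB/AKT/NRas + TAA passed in all 9 omissions (0.00339 to 0.0385) but not with library size alone (adjusted p = 0.0559).

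Hnf4a encodes HNF4A, the nuclear receptor at the centre of the hepatocyte network. The gene (ENSMUSG00000017950) lies on the forward strand at chr2:163506808-163572910, with 13 exon blocks of 4828 counted bases. The controls were at 157, 166, 196 and 195 CPM and the SB + TAA livers at 125, 129, 97.6 and 80.3 CPM, so the groups did not overlap. Of all genes 5.2% were lower in every SB + TAA liver than in every control. In each of the other 4 groups at least 1 liver was inside the control range. Those ranges were 99.1 to 164 CPM in SB/AKT/c-Met + saline, 102 to 186 in SB/AKT/c-Met + TAA, and, for the AKT/NRas model, 93.5 to 169 without and 80.9 to 159 with TAA. The mean fell from 178 ± 19.96 CPM (n = 4) to 108 ± 23.2 (n = 4) in SB + TAA, a log2 change of −0.72 ± 0.22 (edgeR adjusted p = 0.0493). This value passed in only 1 of 8 single omissions, that of SB + TAA replicate 2 (adjusted p 0.0266 to 0.193 over the 8). Without SB + TAA replicate 4, the liver with muscle RNA, the change was −0.61 (adjusted p = 0.193). It did not pass with library size alone either (adjusted p = 0.255).

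Nr5a2 encodes NR5A2, the nuclear receptor that drives bile acid synthesis in hepatocytes. The gene (ENSMUSG00000026398) is on the reverse strand at chr1:136842571-136960448. The controls were at 42.8, 48.9, 38.1 and 43.7 CPM. SB + TAA was at 27.2, 31.2, 26.0 and 19.7 CPM, SB/AKT/c-Met + saline at 31.95, 18.8 and 30.4 CPM and SB/AKT/NRas + saline at 26.4, 17.4, 27.0 and 34.8 CPM. SB/AKT/NRas + TAA was at 26.0, 28.4, 33.9, 27.2 and 21.3 CPM. All 16 livers of these 4 groups were below the lowest control, and no change of Nr5a2 passed in the main fit. In the order given, 5.2%, 4.85%, 4.27% and 6.12% of all genes showed such a separation in the single groups. The share for the 4 groups together was not counted. Its log2 changes from SB + saline were −0.74 ± 0.25 in SB + TAA (edgeR adjusted p = 0.0762), −0.68 ± 0.27 in SB/AKT/c-Met + saline (0.366), −0.71 ± 0.25 with AKT/NRas and saline (0.075) and −0.66 ± 0.23 with AKT/NRas and TAA (0.0698). In SB/AKT/c-Met + TAA the livers were at 38.4, 39.4, 13.8 and 24.2 CPM, of which the first 2 reached the control range, with a change of −0.59 ± 0.25 (0.205). Among 9 other filters, scalings and fits, the fall of Nr5a2 passed in 4 for SB/AKT/NRas + TAA, 2 for SB + TAA and 1 for SB/AKT/NRas + saline.

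Of the 3 FOXA genes, Foxa3 passed in 1 comparison and the other two in none. Foxa3 (ENSMUSG00000040891, reverse strand, chr7:19013284-19023538) encodes the FOXA protein most tied to the adult liver and its glucose metabolism. It was at 88.2, 138, 126 and 88.2 CPM in SB + saline and at 54.1, 46.7, 99.4, 53.6 and 31.6 CPM in SB/AKT/NRas + TAA. In the latter group 4 of 5 livers were below every control. The change there was −0.95 ± 0.29 (edgeR adjusted p = 0.0344), and it did not pass in 5 of 9 single omissions (0.00381 to 0.106), with library size alone (0.117) or with the replicate number as a block (0.0885). The 3 SB/AKT/c-Met + saline livers were also all below the controls, at 62.5, 73.8 and 74.2 CPM, as were 4.85% of all genes. The change there of −0.65 ± 0.33 did not pass (edgeR adjusted p = 0.516). In SB/AKT/NRas + saline the livers were at 123, 46.3, 70.7 and 54.7 CPM and the change of −0.59 did not pass (edgeR adjusted p = 0.255). Without replicate 1 of that group, the liver at 123 CPM, it was −0.95 and passed (edgeR adjusted p = 0.0279).

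Foxa2 (ENSMUSG00000037025, reverse strand, chr2:148042877-148046969), a regulator of lipid and bile acid handling in the fed and fasted liver, ranged from 13.3 to 25.0 CPM in the controls and from 14.0 to 24.5 CPM over the other 20 livers. Its change in SB + TAA was −0.00 ± 0.20, with a 95% interval of −0.41 to 0.41. Foxa1 (ENSMUSG00000035451, reverse strand, chr12:57540628-57546916), which overlaps FOXA2 in function, had only 9 to 23 counts per liver, or 2.82 to 10.7 CPM, and no change of it passed.

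Cebpb and Onecut1 did not pass in any comparison. Cebpb (ENSMUSG00000056501, forward strand, chr2:167688915-167690418) was at 98.9, 34.7, 71.0 and 52.2 CPM in SB + saline, a range that held all of the other 20 livers, at 48.0 to 90.4 CPM. Its log2 change in SB + TAA was 0.05 ± 0.24 (edgeR adjusted p = 0.941). Onecut1 (ENSMUSG00000043013, forward strand, chr9:74861921-74891781), which encodes HNF6, a factor of liver and bile duct development, had its lowest group mean in SB + saline, where the 4 livers were at 11.1, 3.41, 4.81 and 7.71 CPM. The SB + TAA livers, at 12.1, 12.6, 9.48 and 13.8 CPM, overlapped them through 1 liver, and the highest single liver, at 30.6 CPM, was in SB/AKT/c-Met + saline. Its log2 changes of 0.80 ± 0.43 in SB + TAA (edgeR adjusted p = 0.29) and 1.04 ± 0.46 in SB/AKT/c-Met + saline (0.439) did not pass. Onecut1 had 6 to 66 counts per liver and shares exon bases on the same strand with Gm20649, so its counts are uncertain.

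**Figure D2:**
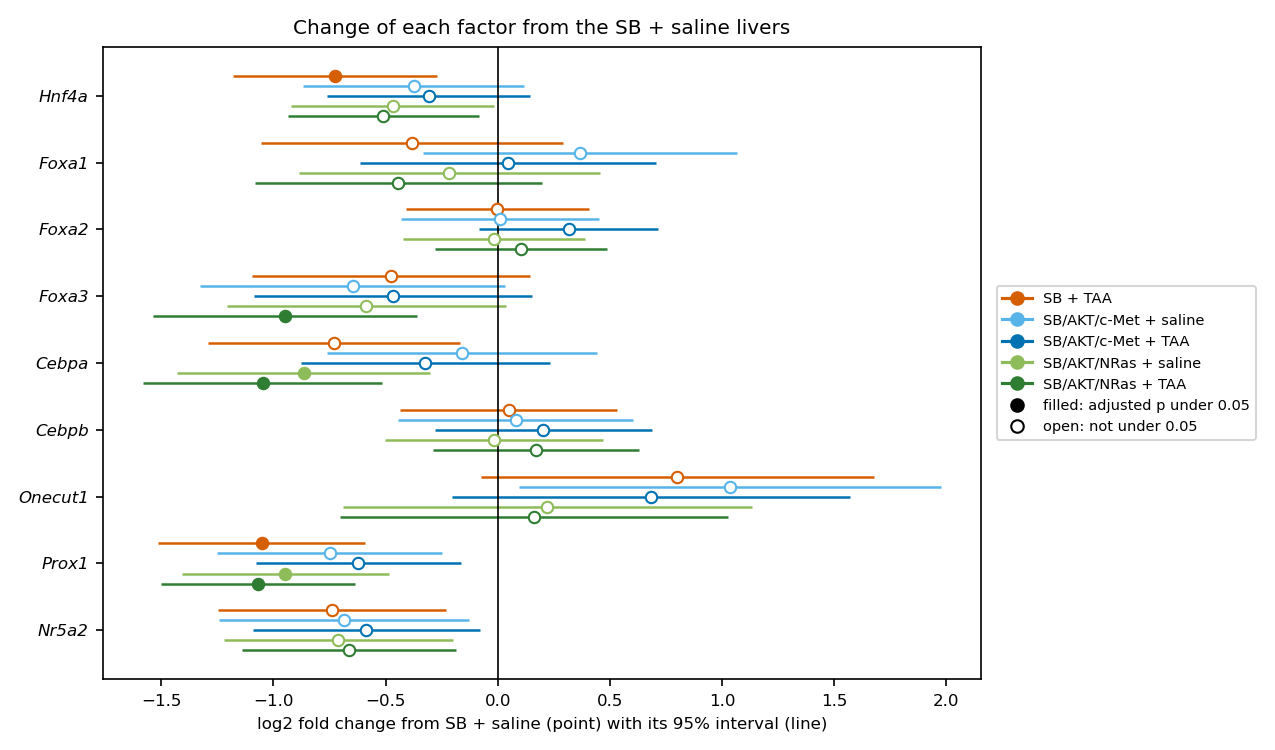
For each gene the points give the log2 change from SB + saline in the 5 treated groups, with lines for 95% intervals, and filled points have an edgeR adjusted p under 0.05. Filled points are 7 in number and all lie below 0, namely Prox1 in 3 groups, Cebpa in 2, Hnf4a in 1 and Foxa3 in 1.

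Counted over the 9 members, the lower calls against SB + saline were 2 in SB + TAA (Hnf4a, Prox1), where 2.51% of genes were called lower and 3.48% higher. They were 2 in SB/AKT/NRas + saline (Cebpa, Prox1; 2.84% of genes lower and 5.56% higher) and 3 in SB/AKT/NRas + TAA (Foxa3, Cebpa, Prox1; 3.55% lower and 5.7% higher). There were 0 in SB/AKT/c-Met + saline, where 0.0413% of genes were called lower, and 0 in SB/AKT/c-Met + TAA, where 1.07% were lower and 2.68% higher. At an unadjusted p under 0.05 edgeR counted 3 members in the former (2 lower, and Onecut1 higher), where 10.1% of all genes met that threshold, and 2 in the latter, where 17.2% did. The members' log2 changes were below 0 for 7 of 9 genes with TAA alone, 5 with AKT/c-Met, 8 with AKT/NRas, 5 with AKT/c-Met and TAA, and 6 with AKT/NRas and TAA. In the same order their medians were −0.48, −0.16, −0.47, −0.31 and −0.51, beside medians of all genes of 0.09, 0.02, 0.07, 0.04 and 0.07. With library size alone, the members' medians became −0.10, 0.10, −0.04, 0.07 and −0.12, beside 0.46, 0.28, 0.50, 0.41 and 0.46 for all genes. The members' median lay below that of all genes under both scalings, while its sign in the SB/AKT/c-Met groups depended on the scaling.

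Every liver was below every SB + saline liver for Hnf4a, Prox1 and Nr5a2 in SB + TAA, where 5.2% of genes showed this separation. The same held for Foxa3 and Nr5a2 in SB/AKT/c-Met + saline (4.85% of genes) and for Cebpa, Prox1 and Nr5a2 in both AKT/NRas groups, without TAA (4.27%) and with it (6.12%). It held for no member in SB/AKT/c-Met + TAA (5.6%).

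**Figure D3:**
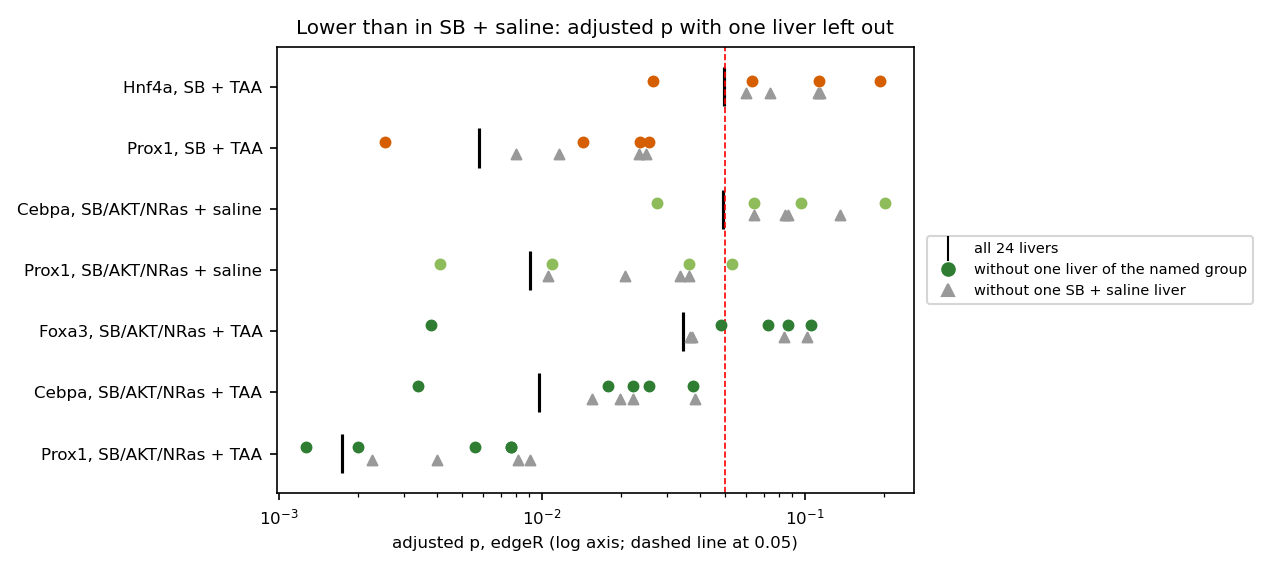
The adjusted p (log axis) of the 7 called values is shown with all livers and with each liver of the compared groups left out, with a line at 0.05. Prox1 with TAA alone, and both Prox1 and Cebpa with AKT/NRas and TAA, stay under the line in every omission, whereas the other 4 cross it.

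Adding TAA to an oncogene model, or the oncogenes to TAA, gave no called difference in any member. None of the 9 passed when SB + TAA was set against SB/AKT/c-Met + TAA (0.402% of all genes passed) or against the AKT/NRas livers with TAA (1.47%), or when TAA was set against saline within the AKT/c-Met model (0.237%) or within the AKT/NRas model (0.175%). In edgeR 0 members had an unadjusted p under 0.05 in any of these 4 comparisons, where 8.91%, 11.2%, 8.69% and 8.65% of all genes did. For Prox1 the log2 change with TAA was 0.13 ± 0.24 within SB/AKT/c-Met (95% interval −0.37 to 0.63) and −0.12 ± 0.21 within SB/AKT/NRas (−0.56 to 0.32), set beside −1.05 ± 0.23 with SB alone. The intervals of the first pair reach past 0.3 in both directions, so differences of that size were not detectable with 3 to 5 livers per group.

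The difference between these TAA effects was tested as an interaction. No member passed for AKT/c-Met, where 0.0103% of all genes passed, or for AKT/NRas, where 0.758% passed. At an unadjusted p under 0.05 edgeR counted 3 members in each, Prox1, Hnf4a and Nr5a2, beside 8.45% of all genes for AKT/c-Met and 14.9% for AKT/NRas. In this order their log2 changes with TAA were −1.05, −0.72 and −0.74 with SB alone. They were 0.13, 0.07 and 0.10 within AKT/c-Met, and −0.12, −0.04 and 0.05 within AKT/NRas. For Prox1 the interaction was 1.18 ± 0.33 with AKT/c-Met (edgeR adjusted p = 0.349) and 0.93 ± 0.31 with AKT/NRas (edgeR adjusted p = 0.157). For Hnf4a it was 0.79 ± 0.33 and 0.68 ± 0.31 (edgeR adjusted p = 0.529 and 0.293), and for Nr5a2 0.84 ± 0.37 and 0.79 ± 0.34 (0.56 and 0.281).

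Promoter sequence is shown for Prox1, Cebpa, Hnf4a and Nr5a2, the 4 members that varied together, so that the windows searched for motifs can be read. RefSeq windows (GRCm38.p6) of 300 bases, from 250 before to 50 after a start, were found for all 9 members, 14 windows in all, and are printed here only for the bases before the start that lie outside annotated exons. Both strands of the windows were searched for the letters bound by HNF4 (CAAAGTCCA), FOXA (TGTTTAC), C/EBP (TTGCNNAA), HNF6 (ATTGAT) and NR5A2 (CAAGGTCA), no one of which contains another. Capitals mark a match on either strand, and a sequence with no capitals has none. For Prox1 the window printed is chr1:190170828-190171077 on the reverse strand and for Cebpa chr7:35119043-35119292 on the forward strand. For Hnf4a both windows are given, the upstream one at chr2:163506607-163506807 and the downstream one, which starts the transcripts of adult liver, at chr2:163546943-163547154, both forward. For Nr5a2 the window printed is chr1:136953631-136953880 on the reverse strand. A further window of Nr5a2 (chr1:136960449-136960698) and a further window of Prox1 (chr1:190169516-190169765) held no match and are not printed.
Prox1: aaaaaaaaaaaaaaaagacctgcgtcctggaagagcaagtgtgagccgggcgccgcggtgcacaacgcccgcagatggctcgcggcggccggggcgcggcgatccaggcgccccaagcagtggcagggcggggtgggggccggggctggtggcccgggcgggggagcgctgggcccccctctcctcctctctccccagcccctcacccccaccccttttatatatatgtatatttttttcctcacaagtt
Cebpa: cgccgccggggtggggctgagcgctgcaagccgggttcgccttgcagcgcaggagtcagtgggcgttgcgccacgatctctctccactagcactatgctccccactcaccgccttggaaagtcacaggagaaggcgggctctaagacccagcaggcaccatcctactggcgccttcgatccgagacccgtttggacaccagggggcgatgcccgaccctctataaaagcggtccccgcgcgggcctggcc
Hnf4a upstream: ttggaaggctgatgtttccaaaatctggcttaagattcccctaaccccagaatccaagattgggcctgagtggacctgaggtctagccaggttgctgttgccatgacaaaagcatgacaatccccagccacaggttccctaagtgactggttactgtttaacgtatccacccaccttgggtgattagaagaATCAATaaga
Hnf4a downstream: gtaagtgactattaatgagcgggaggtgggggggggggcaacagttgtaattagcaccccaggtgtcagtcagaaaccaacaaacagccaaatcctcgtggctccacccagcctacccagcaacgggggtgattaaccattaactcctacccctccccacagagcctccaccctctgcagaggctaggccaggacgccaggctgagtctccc
Nr5a2: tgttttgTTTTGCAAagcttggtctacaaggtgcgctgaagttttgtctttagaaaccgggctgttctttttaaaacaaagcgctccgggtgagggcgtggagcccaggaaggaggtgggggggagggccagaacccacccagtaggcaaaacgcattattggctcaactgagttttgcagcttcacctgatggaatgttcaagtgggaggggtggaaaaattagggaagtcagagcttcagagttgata

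The HNF6 letters lie in the upstream Hnf4a window 59 to 54 bases before the start, on the opposite strand, and the C/EBP letters in the printed Nr5a2 window 243 to 236 bases before the start. Of the 14 member windows 2 held the HNF6 letters (that one and 1 of Foxa2), against 7.54% of the 32851 windows of all genes. There was 1 with the C/EBP letters (10.8% of all windows) and 1, of Foxa1, with the FOXA letters (3.65%). None held the HNF4 letters (0.475%) or the NR5A2 letters (1.56%). A match of letters is not a measure of binding.

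Of the 9 members, 4 varied most closely together over the 24 livers. Over the 24 livers, log2 CPM of Hnf4a correlated with Prox1 at r = 0.808, with Nr5a2 at r = 0.802 and with Cebpa at r = 0.793, and Cebpa with Prox1 at r = 0.790. With group means removed these were 0.723, 0.768, 0.796 and 0.688. These pairs are at the top of the 36 pairs of members. Cebpb and Onecut1 did not share the pattern, with r from −0.330 (Cebpb with Prox1) and −0.328 (Onecut1 with Foxa3) up to 0.269 between the pair itself. For Foxa2, r was 0.402 with Cebpa, 0.378 with Hnf4a, 0.282 with Nr5a2 and 0.214 with Prox1. With group means removed these were 0.641, 0.532, 0.514 and 0.409, the first of them above the 0.615 of Cebpa with Nr5a2. Foxa1 had its highest r with Hnf4a, at 0.601, or 0.608 with group means removed. The livers share their library measures too. With the number of genes with a count, r over the 24 livers was −0.773 for Hnf4a, −0.811 for Cebpa, −0.788 for Prox1 and −0.682 for Nr5a2, and −0.684, −0.774, −0.604 and −0.510 with group means removed. Over the 24 livers it was −0.594 for Foxa3, −0.590 for Foxa1, −0.244 for Foxa2, 0.217 for Cebpb and 0.188 for Onecut1. With group means removed it was −0.449, −0.597, −0.616, 0.106 and 0.00249 in the same order. Livers with more genes detected thus had lower Hnf4a, Cebpa, Prox1 and Nr5a2, but not these alone. Foxa1 and Foxa3 declined too, and within groups so did Foxa2, which there also had r = −0.803 with the total counts. The part of these measures in the results was not tested.

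**Figure D4:**
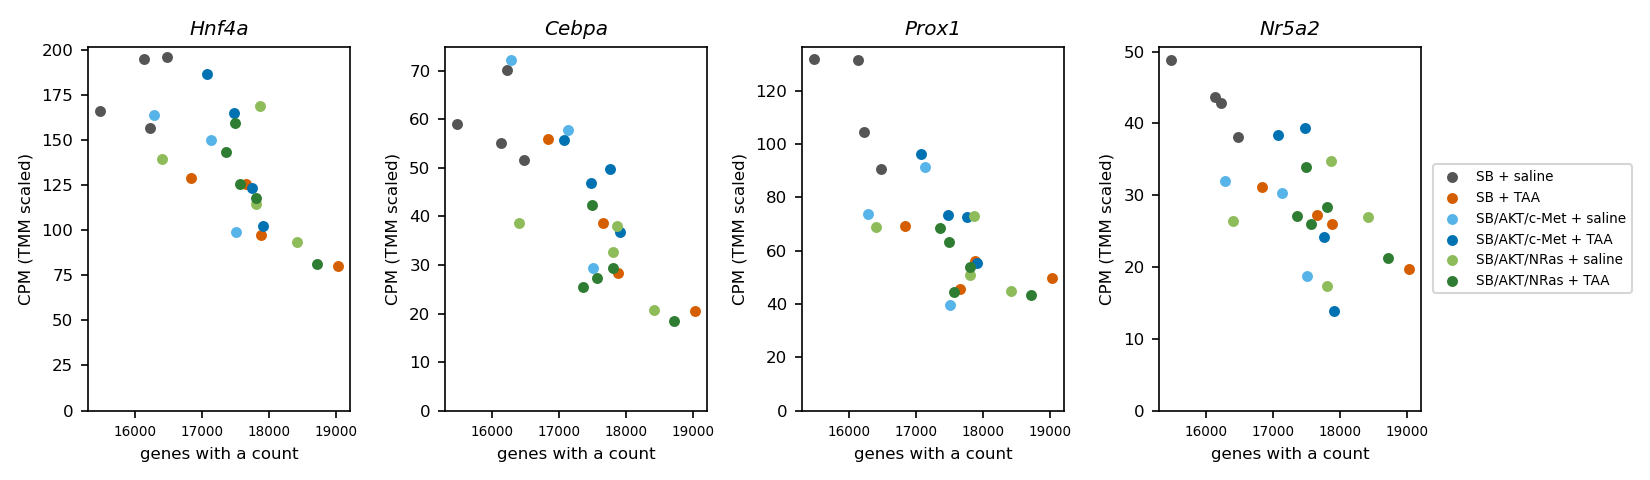
CPM of Hnf4a, Cebpa, Prox1 and Nr5a2 is plotted for each of the 24 livers against the number of genes with at least 1 count, coloured by group. All 4 decline along the axis (r from −0.811 to −0.682 on log2 CPM), and the SB + saline livers sit at its left, at 15478 to 16478 genes.

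Among 9252 genes with a mean of at least 5 CPM, those most like each member over the 24 livers were as follows. Nearest to Hnf4a were Ppp2r5a (r = 0.902), a phosphatase subunit, Col18a1 (0.884) and Zcchc24 (0.875). Nearest to Cebpa were Retreg2 (0.908), Ppp1r15b (0.903) and Col18a1 (0.899). Nearest to Prox1 were Mut (0.883), the mitochondrial methylmalonyl-CoA mutase, Abat (0.879), a GABA transaminase, and Ppp1r15b (0.874), and for Nr5a2 Etv3 (0.821) led, before Papd5 and Mpnd. For Foxa3 these were Uroc1 (0.868), the urocanate hydratase of histidine breakdown, Ss18l2 and Arf5. The nearest genes were less alike for the other members: Peli2 (0.773), Bcl9l and Gm42418 for Foxa1, Zbtb7b (0.724), Fam13b and Zfp507 for Foxa2, Alas1 (0.777), Ubl3 and Lpin2 for Cebpb, and Pcm1 (0.730), Arid5b and Kmt2e for Onecut1.

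Ratios of 2 genes within a liver do not depend on scaling. Those of Prox1 to Foxa2 and Cebpa to Cebpb were chosen after the values were seen and are a description. The ratio of Prox1 to Foxa2 counts was 5.27 to 9.90 in SB + saline and 2.39 to 3.52 with TAA alone. It was 2.75 to 4.03 with AKT/NRas, 2.25 to 3.62 with AKT/NRas and TAA and 2.97 to 4.25 with AKT/c-Met and TAA. These 4 groups lay below every control, and SB/AKT/c-Met + saline (2.83 to 5.95) overlapped the controls. The share of all gene pairs that separate in this way was not counted. The ratio of Cebpa to Cebpb counts was 0.710 to 1.70 in the controls, 0.407 to 0.677 with AKT/NRas, 0.303 to 0.603 with AKT/NRas and TAA and 0.585 to 0.683 with AKT/c-Met and TAA, and these 3 groups were below every control. Set against Foxa2 in place of Cebpb, Cebpa gave a ratio of 2.36 to 4.32 in the controls, which the AKT/c-Met and TAA livers overlapped at 1.93 to 2.46. The ratio of Cebpa to Cebpb overlapped the controls in SB + TAA (0.318 to 1.08) and in SB/AKT/c-Met + saline (0.326 to 1.18).

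**Figure D5:**
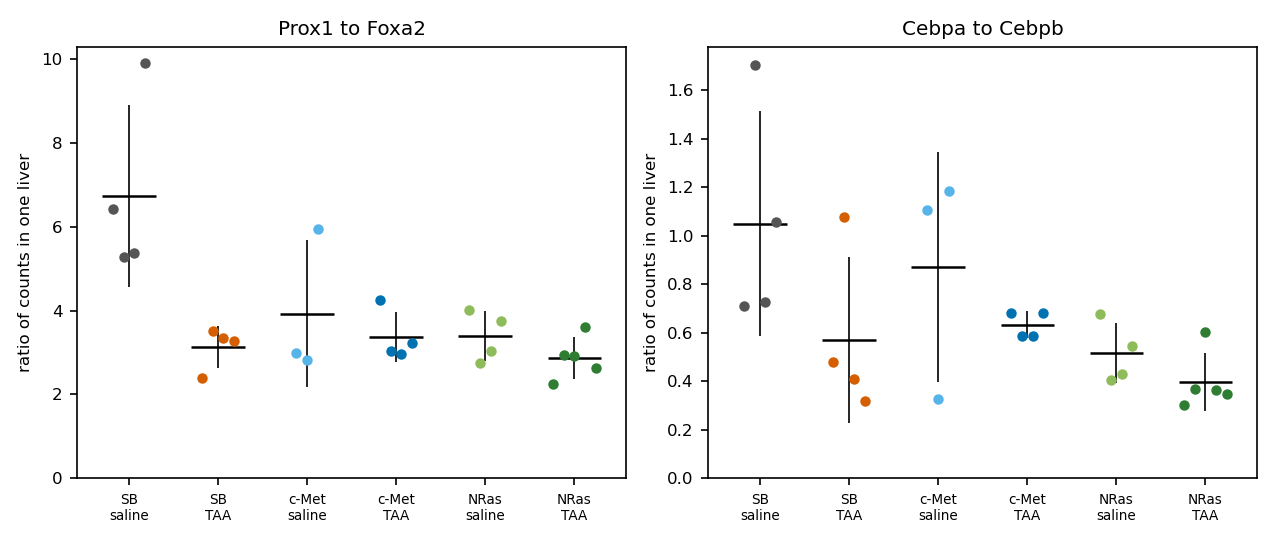
Each point is a liver's ratio of counts, Prox1 to Foxa2 on one panel and Cebpa to Cebpb on the other, with the group mean and ± 1 SD. In Prox1 to Foxa2 the SB + saline livers, at 5.27 to 9.90, are above all livers of 4 groups and overlap only SB/AKT/c-Met + saline.

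Other liver transcription regulators, a list of 24 genes of which 23 were tested (Hnf4g was not), fell in part. Against SB + saline 3 of 23 were lower with TAA alone, 0 with AKT/c-Met, 5 with AKT/NRas, 1 with AKT/c-Met and TAA, and 5 with AKT/NRas and TAA, and none was higher. In the same order 2.51%, 0.0413%, 2.84%, 1.07% and 3.55% of all genes were lower. The list's median changes were −0.57, −0.29, −0.56, −0.35 and −0.60, beside 0.09, 0.02, 0.07, 0.04 and 0.07 for all genes. In the F test Nr1i3 (adjusted p = 0.00615), Hlf (0.0317) and Ppara (0.0324) passed, 3 of 23, beside 9.01% of all genes. Nr1i3 encodes CAR, the xenobiotic receptor, and fell from 81.7 ± 18.4 CPM (n = 4) in the controls to 26.6 ± 15.5 (n = 4) under TAA alone, a change of −1.64 ± 0.35 (edgeR adjusted p = 0.00577), and it passed in 4 of the 5 groups. Ppara, the receptor that drives fatty acid oxidation, changed by −0.90 with AKT/NRas and TAA (edgeR adjusted p = 0.0079).

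Textbook targets of the members were taken as lists that overlap, since Alb, Tat, Otc, Ttr, Apob, Pck1, G6pc, Cyp7a1 and Cyp8b1 each stand in more than 1. Of 15 HNF4A targets 3, 0, 4, 2 and 7 were lower in the same order of groups and none higher, with median changes of −0.63, −0.40, −0.57, −0.44 and −0.67. Beside this and the next 4 lists, 2.51%, 0.0413%, 2.84%, 1.07% and 3.55% of all genes were lower. Those higher were 3.48%, 0.599%, 5.56%, 2.68% and 5.7%. Medians of all genes were 0.09, 0.02, 0.07, 0.04 and 0.07. Apoa1, the main protein of high-density lipoprotein, changed by −1.12 ± 0.21 with AKT/NRas and TAA (edgeR adjusted p = 0.00107). Cyp7a1, the rate-limiting enzyme of bile acid synthesis, fell from 123 to 31.4 CPM with AKT/NRas and saline (−1.98 ± 0.41, edgeR adjusted p = 0.00332). Cyp8b1, the sterol 12-alpha-hydroxylase, fell from 215 to 40.2 CPM in SB + TAA (−2.44 ± 0.59, edgeR adjusted p = 0.0133). F9 and Baat were the other targets that passed the F test (adjusted p = 0.0247 and 0.0252).

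Of 11 C/EBPα targets 0, 0, 5, 0 and 4 were lower and none higher, so that calls were made in the SB/AKT/NRas groups. Whether the groups differ in this was not tested. Arg1, the arginase of the urea cycle, fell with AKT/NRas and saline, by a log2 change of −1.41 ± 0.20 (edgeR adjusted p = 0.000146), as did Cps1, the first enzyme of that cycle (−1.20, edgeR adjusted p = 0.00526), and Alb (−0.78, 0.0323). The list's median changes were −0.45, −0.34, −0.78, −0.39 and −0.49.

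Acute phase targets of C/EBPβ passed the F test for 8 of 10 genes, beside 9.01% of all genes. Cebpb itself did not pass, and the changes of the targets ran in both directions. Saa1 and Saa2, the serum amyloid A genes, fell in 4 of the 5 groups, with a log2 change of −3.76 ± 0.64 for Saa1 in SB + TAA (edgeR adjusted p = 0.000758). Orm2, an orosomucoid, rose with AKT/NRas and saline by 3.01 ± 0.55 on the log2 scale (edgeR adjusted p = 0.00133), and Lcn2, lipocalin 2, by 5.74 ± 0.99 (0.000838). Over the list 4, 2, 0, 3 and 4 genes were lower and 0, 0, 2, 1 and 2 higher.

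Of 10 FOXA targets 0, 0, 3, 0 and 2 were lower and 2, 0, 2, 1 and 2 higher. The higher ones were Afp, the fetal albumin-like protein, which was at 1.91 CPM in the controls, 36.0 with TAA alone (4.22 ± 0.92, edgeR adjusted p = 0.00632) and 169 with AKT/NRas and saline, and Igfbp1, an insulin-like growth factor binding protein (2.74 in SB + TAA, edgeR adjusted p = 0.0179). Of 10 NR5A2 targets 1, 0, 2, 0 and 3 were lower. Abcg5, a sterol transporter, rose with AKT/NRas and TAA (0.94, edgeR adjusted p = 0.0146), and Gls2, a glutaminase, fell with AKT/NRas and saline (−1.51, 0.00861). With library size alone the medians of the HNF4A and C/EBPα targets stayed below 0 in all 5 groups, while those of the FOXA and NR5A2 lists turned positive in 3 groups each that of the acute phase list in 2 and that of the other regulators in 1.

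Markers of cell types are given beside these results, in the same order of groups. Of all genes 2.51%, 0.0413%, 2.84%, 1.07% and 3.55% were called lower. Called higher were 3.48%, 0.599%, 5.56%, 2.68% and 5.7%. Of 12 hepatocyte markers, 8 of which also stand in the target lists, 0, 0, 4, 1 and 4 were lower, and their summed level was 150554 to 178138 CPM in the controls, 108456 to 157493 with TAA alone, 87202 to 143617 with AKT/NRas and 90975 to 127391 with AKT/NRas and TAA. In the AKT/c-Met groups it was 110248 to 124424 without and 94915 to 122999 with TAA. Stellate cell and fibroblast markers were higher for 4, 0, 6, 0 and 4 of 9 (with TAA alone Des, also a muscle gene, was among the 4), with sums of 54.0 to 91.6 CPM in SB + saline and up to 784 CPM elsewhere. Macrophage and neutrophil markers were higher for 2, 0, 7, 4 and 5 of 11. Bile duct markers were higher for 1, 0, 3, 0 and 1 of 9, with sums of 61.6 to 106 CPM in SB + saline, where Cftr and Cldn4 were at 0, and up to 8817 CPM in SB/AKT/NRas + saline, led by Spp1. The part of these cell types in the lower Prox1, Cebpa, Hnf4a and Foxa3 was not tested.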

How the data were processed

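Total RNA of 24 livers was sequenced as poly(A)-primed, indexed 3′ libraries with unique molecular identifiers. The authors aligned reads with STAR to GRCm38 with human NRAS and MET added and counted them per gene with featureCounts 1.6.4 in stranded mode, leaving out alignments of mapping quality under 10. The deposited values are raw counts. The study's methods describe removal of duplicates, but the recorded counting command holds no option for it, so a count may be a read or a molecule.

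Groups came from the labels. Counts were modelled with edgeR 4.0.16 (R 4.3.3), TMM scaling, a filter that kept genes reaching 0.5 CPM in 2 or more livers, and 1 quasi-likelihood fit of 6 group means over all 24 livers, tested on simulated data; a gene passed at an adjusted p under 0.05. Between 2152510 and 3399247 counts per liver set the precision, poorest for Foxa1 and Onecut1. Alternatives were limma-voom (limma 3.58.1, the authors' test), DESeq2 1.42.0, RLE factors, library size alone, other filters, the replicate number as a block, fits of the compared groups alone and livers left out. Per list, up to 4 genes with the smallest adjusted p of the F test, besides exceptions, are named. Likeness is Pearson's r of log2 CPM with a prior count of 2. The members, lists and livers left out were chosen with earlier results of these data known.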

Additional observations from a re-analysis of the deposited data

Results flagged for a closer look

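In 45 sets of CPM values, 1 for each of the 9 genes in each of the 5 groups with 4 or 5 livers, the lowest and highest liver were compared with the rest by Dixon's gap test. In 1 set a liver lay far from the others: Foxa1 in SB + saline replicate 1 was at 4.28 CPM, below the other 3 livers at 6.25 to 6.42 CPM. This liver had 10 counts of Foxa1. Chance alone gives such a gap in about 1 of 20 sets.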

How the results depend on the processing

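None of the 7 called changes of a member turned its direction under any alternative tried. The number of members that passed the F test, 2 of 9, became 0 with library size alone, 4 with no filter, 1 with the replicate number as a block (Prox1), 3 without both livers that stood apart (Foxa3 added, adjusted p = 0.0387) and 1 to 2 with each liver left out. Of all genes 1746 passed in the main fit. In the same order of settings 2962, 2973, 1248 and 2500 passed, and 1183 to 2697 over the omissions. The fit with no filter tested more genes. Against SB + saline, SB + TAA went from 2 members to 1 with library size alone, 4 with no filter, 1 without both livers that stood apart, where Hnf4a had an adjusted p of 0.149, and 1 to 4 with each liver left out. Of all genes 1160 were called in the main fit, then 2989, 1774 and 652, and 428 to 1823 over the omissions. SB/AKT/NRas + saline went from 2 to 0 with library size alone and 0 to 3 over the omissions, where all genes called went from 1629 to 3685 and 550 to 2918. SB/AKT/NRas + TAA went from 3 to 1 with library size alone, to 5 in a fit of only the compared groups and 2 to 4 over the omissions. All genes called there went from 1793 to 3808, to 2659 and to 1129 to 1979. SB/AKT/c-Met + TAA went from 0 to 1 with library size alone (Foxa2, higher, adjusted p = 0.0386), with no filter (Prox1) and in a fit of the compared groups (Prox1). All genes called there went from 728 to 1944, 1265 and 1619. SB/AKT/c-Met + saline and both interactions each went from 0 to 1 with no filter (Prox1). All genes called went from 124 to 423 in that group. They went from 2 to 217 in the AKT/c-Met interaction and from 147 to 841 in that with AKT/NRas. By construction, library size alone raised the changes of all treated groups from SB + saline. The cause of the other shifts was not tested.

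No pairing of livers by replicate number was seen: same-numbered livers of different groups had a mean correlation of −0.00734 of their deviations from group means, others 0.00215, and 4 of 24 livers were closest to their own number. The labels do not say whether livers of the same number shared a litter or a day. The block lost Foxa3 in SB/AKT/NRas + TAA (adjusted p = 0.0885). Foxa1, with 9 to 23 counts per liver, and Onecut1, with 6 to 66, allow only large changes to be detected.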
